A study of Mus musculus with 6 samples.

Results

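The genes described here encode 42 enzymes that use 2-oxoglutarate as a co-substrate, or close relatives of such enzymes, out of 21899 genes listed for each sample. They were chosen by gene symbol as the JmjC-type histone demethylases (14 genes), the ALKBH family with Fto (9), the prolyl and lysyl hydroxylases (8) and other oxygenases of the same chemistry (11). Each symbol had 1 gene identifier in the tables, and all 42 passed the filter on low counts. Their mRNA was measured by bulk sequencing in induced regulatory T cells (iTregs), which are CD4+ T cells turned towards the FOXP3-expressing suppressive fate in culture. The KO group has 3 samples, from Dlst-Treg iKO mice, and the WT group has 3, from iWT mice. In both groups splenic CD4+ T cells received Treg-polarising medium and 4-hydroxytamoxifen, the drug that activates inducible Cre, over 2 days, and CD4+ cells positive for FoxP3-GFP and tdTomato-RFP were then sorted. The sources used here do not give the Cre driver, the exons that the Dlst allele loses, or the age and number of mice. Whether replicates came from separate mice or cultures is not labelled, so every p-value rests on the spread among these 6 libraries, which may be technical.

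Enzymes of this class bind iron and split oxygen with 2-oxoglutarate, put one oxygen atom into a protein, nucleic acid or small molecule, and release succinate and carbon dioxide. Hydroxylation of a methyl group makes it fall off as formaldehyde, which is how the demethylases among them work. Succinate and fumarate compete with 2-oxoglutarate at high levels, and the EGLN enzymes need oxygen to mark the HIF-alpha subunits for destruction, so the class is often studied as a sensor of mitochondrial metabolism and oxygen. DLST belongs to the 2-oxoglutarate dehydrogenase complex as its transferase, and that complex consumes 2-oxoglutarate in the TCA cycle. Enzyme activity and metabolites were not measured here, and the values below are mRNA levels.

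Among the members, 9 are known HIF targets in other cells (Egln1, Egln3, Kdm3a, Kdm4b, Kdm4c, P4ha1, P4ha2, Plod1 and Plod2), and their promoters are shown because this sequence feature is independent of the counts. The motif searched was the core of the hypoxia response element, ACGTG or GCGTG on either strand, in windows from 250 bases before to 50 after each RefSeq start. Of the 7 HIF-inducible members in the RefSeq promoter table (build GRCm38.p6), all 7 had a match, as did 17 of the 27 other members in it (63.0%) and 46.7% of all 27025 genes with a window. A gene can have several windows, and per window the share was 7 of 10 (70.0%) for HIF-inducible members, 61.8% for the other members and 43.8% for all genes. Stretches of 80 bases upstream of the start follow for 6 of them, 5′ to 3′ on the gene's strand. Each was chosen as the stretch before the start with the most matches, among those free of GENCODE exons. The letters shown are thus no typical sample of the promoter. Kdm3a had 1 match upstream of the start, but not in a stretch free of exons. Capitals mark the motif, also where it is read on the opposite strand as CACGT or CACGC, and CACGTG holds a match on both strands.
Kdm4c (chr4:74251784-74251863, plus strand): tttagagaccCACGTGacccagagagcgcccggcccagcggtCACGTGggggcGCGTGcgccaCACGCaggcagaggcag
Egln1 (chr8:124949325-124949404, minus strand): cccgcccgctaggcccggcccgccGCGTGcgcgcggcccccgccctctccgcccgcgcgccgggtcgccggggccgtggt
Egln3 (chr12:54204034-54204113, minus strand): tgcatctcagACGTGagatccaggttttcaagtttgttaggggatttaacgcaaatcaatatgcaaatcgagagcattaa
P4ha1 (chr10:59323123-59323202, plus strand): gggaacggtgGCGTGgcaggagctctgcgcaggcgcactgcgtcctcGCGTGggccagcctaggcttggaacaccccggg
P4ha2 (chr11:54100807-54100886, plus strand): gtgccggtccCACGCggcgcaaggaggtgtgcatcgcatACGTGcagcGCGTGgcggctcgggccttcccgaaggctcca
Plod1 (chr4:147936777-147936856, minus strand): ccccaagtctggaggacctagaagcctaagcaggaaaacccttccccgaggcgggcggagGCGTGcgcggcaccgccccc
Kdm4c had 6 matches in this stretch, each CACGTG counting on both strands. P4ha2 had 3, P4ha1 had 2, and Egln1, Egln3 and Plod1 had 1 each. Over all 250 bases before the start, Egln1 had 2 and P4ha1 had 3. A match is a description of these letters and does not show that HIF binds there. Kdm4c has 2 windows, and the start used here, at 74251879, lies inside its GENCODE gene, which begins at 74242497. The start used for P4ha2, at 54100924, also lies inside its gene, which begins at 54100095. Kdm4b and Plod2 were among the 8 members with no window in the table.

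Each library held between 33590510 and 49772670 estimated counts. Dlst, the targeted gene, had 125, 129 and 129 CPM (counts scaled to a common library total, with TMM factors) in KO iTregs, against 161, 149 and 149 CPM in WT iTregs. The groups did not overlap, with a log2 fold change of -0.26 (SE 0.05) and an adjusted p of 0.0894 by edgeR's quasi-likelihood test. A count over the whole gene need not show a deletion of part of it. How complete the deletion was in the sorted cells was not tested. The 7 T cell and Treg markers followed were present in every library. All CPM values from here to the end of the paragraph are on library totals alone, without TMM factors. Foxp3 had 206 to 233 CPM in KO and 156 to 199 CPM in WT, and the other 6 had log2 fold changes below 0. Of these Cd4 had 468, 444 and 430 CPM in KO and 512, 499 and 523 CPM in WT, and Ikzf2 had 21.5, 22.9 and 22.0 CPM in KO and 31.2, 36.8 and 30.7 CPM in WT. Both were lower in KO without overlap, and Ikzf2 passed the test (adjusted p = 0.0366 by edgeR). In both groups the library numbered 1 stood apart from the other 2. The biological coefficient of variation (BCV), the variation between libraries beyond counting error, was 12.5 to 14.3% between the first KO library and the other KO libraries and 2.97% between those 2. In WT it was 14.4 to 14.8% for the first library and 7.12% between the other 2. The first KO library alone held Y-linked mRNA beyond a trace, with Ddx3y at 81.3 CPM and Eif2s3y at 82.9 CPM, against at most 0.0256 CPM in the other 5 libraries. Summed CPM of 8 neutrophil markers was 300, 75.6 and 68.4 in KO and 32.0, 6.94 and 4.96 in WT, and that of 10 monocyte and macrophage markers was 387, 103 and 114 in KO and 33.2, 23.2 and 21.7 in WT. CD8 T cell markers (2 genes) summed to 86.0 to 102 CPM in KO and 42.9 to 76.2 CPM in WT, higher in KO without overlap. B cell markers (5 genes) summed to 28.1 to 30.0 CPM in KO and to 92.4, 28.7 and 14.0 CPM in WT. Of 7 fibroblast markers, Dcn, Lum and Col3a1 were at or near 0 in all 6 libraries. Col1a1, Col1a2, Pdgfra and Pdgfrb were above 0 in every library, at up to 0.462, 0.281, 0.248 and 0.365 CPM, in that order. All 14 S phase genes and all 14 G2 and M phase genes followed had log2 fold changes below 0, with medians of -0.18 and -0.19, and the S phase sum was 3328 to 3645 CPM in KO and 4537, 3516 and 3907 CPM in WT. The part of sex, of other cells and of cycling in the values below was not tested.

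Most of these mRNAs differed little between KO and WT iTregs. None of the 42 members passed an adjusted p of 0.05 by edgeR's quasi-likelihood test, where 0.674% of all 12768 tested genes did (0.454% higher in KO and 0.219% lower). None passed with the replicate number as a block either, where 1.39% of all genes did. An unadjusted p below 0.05 was reached by 6 members (14.3%), beside 15.1% of all tested genes. In 7 members every KO value lay above every WT value and in 4 every KO value lay below, which is 26.2% of the members. Over all tested genes it was 22.8%, with 11.9% higher in KO and 10.9% lower. These shares lie near those of all genes. DESeq2 placed 2 members past its threshold, Alkbh1 and Kdm6b, where 4.17% of all tested genes passed.

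The median log2 fold change over the members was -0.01, beside -0.003 over all genes, with 19 members above 0 and 23 below. Single values ran from -1.07 (P4ha2) to 0.68 (Asph). The median size of a member's change, without its sign, was 0.08, beside 0.10 over all tested genes. The median standard error was 0.07, beside 0.09. The 95% interval of the fold change stayed within 1.5-fold in either direction for 37 of the 42 and within 1.2-fold for 22. Of all 12768 tested genes, 9099 stayed within 1.5-fold and 4960 within 1.2-fold, so small changes were common among all genes too. Changes beyond 1.5-fold thus lay outside the interval for 37 members, while smaller ones remained possible for many. Ogfod1, a prolyl hydroxylase of a ribosomal protein, had the smallest change. It had 39.3, 40.2 and 39.7 CPM in KO and 39.6, 39.9 and 39.8 CPM in WT, with an interval from -0.11 to 0.11.

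**Figure D1:**
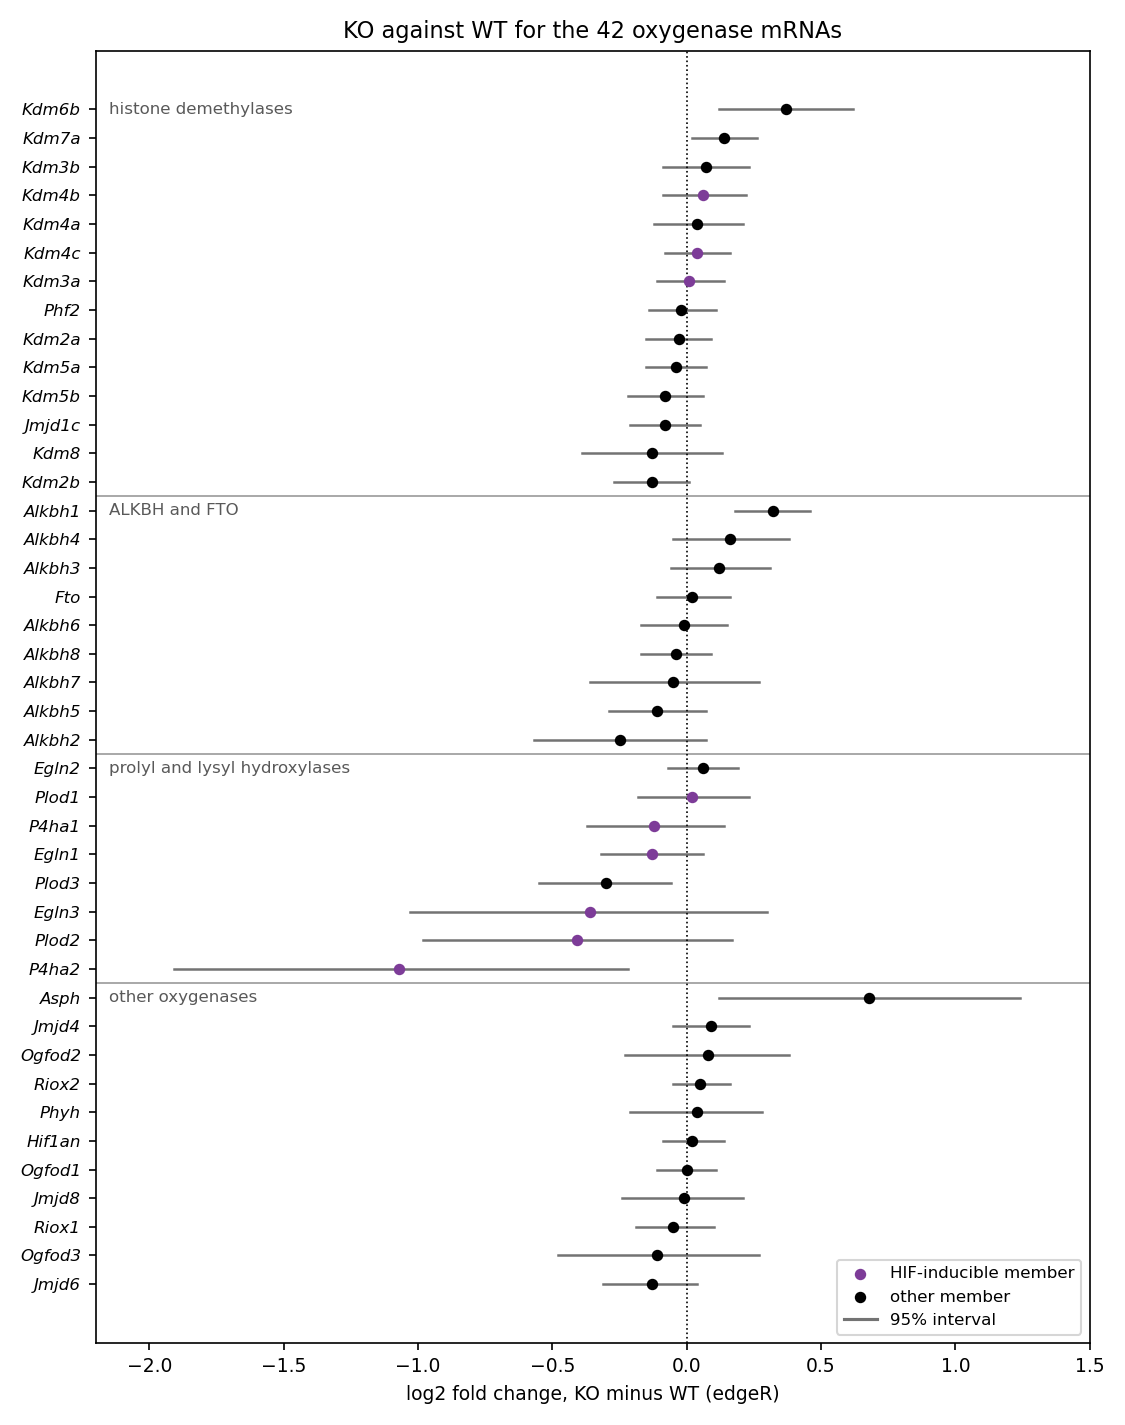
Log2 fold change, KO minus WT, of the 42 members with 95% intervals from edgeR, ordered within the 4 families; purple points mark the 9 HIF-inducible members. Most points lie near 0, with Kdm6b, Alkbh1 and Asph to the right and P4ha2, Plod2, Egln3 and Plod3 to the left.

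Levels can be compared between genes in TPM, which is scaled by transcript length as well as by library total. Egln3, the HIF prolyl hydroxylase most strongly induced by HIF itself in many cells, was the most abundant member at 154 ± 35.1 TPM in KO and 198 ± 59.3 TPM in WT (SD, n = 3 each). P4ha1, a catalytic subunit of collagen prolyl hydroxylase, followed at 77.2 ± 9.06 TPM in KO and 83.7 ± 10.8 TPM in WT. The difference between the groups was smaller than the SD within WT in both. Kdm2a, a demethylase that binds CpG islands, led the histone demethylases at 65.4 ± 2.60 TPM in KO and 69.8 ± 8.71 TPM in WT. Kdm4a was next at 53.5 ± 2.09 TPM in KO and 52.2 ± 3.49 TPM in WT, and Kdm8 was the lowest at 5.55 ± 0.626 TPM in KO and 6.21 ± 0.781 TPM in WT.

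Both erasers of methyladenosine on mRNA led the ALKBH family. Alkbh5 averaged 53.1 ± 4.44 TPM in KO and 57.4 ± 3.66 TPM in WT, and Fto averaged 47.9 ± 1.10 TPM in KO and 47.5 ± 3.41 TPM in WT (SD, n = 3 each). Alkbh2, a DNA repair enzyme, was the lowest of that family at 8.74 ± 0.329 TPM in KO and 10.7 ± 1.62 TPM in WT. Jmjd6, a lysyl hydroxylase of splicing factors, and Riox2, a histidyl hydroxylase of a ribosomal protein, led the remaining oxygenases. Jmjd6 averaged 58.7 ± 2.00 TPM in KO and 66.3 ± 6.15 TPM in WT, and Riox2 averaged 55.2 ± 1.26 TPM in KO and 53.4 ± 0.696 TPM in WT. P4ha2 and Asph were the 2 scarcest members. P4ha2 averaged 1.28 ± 0.288 TPM in KO and 2.67 ± 1.18 TPM in WT, and Asph averaged 0.452 ± 0.0700 TPM in KO and 0.319 ± 0.0665 TPM in WT.

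**Figure D2:**
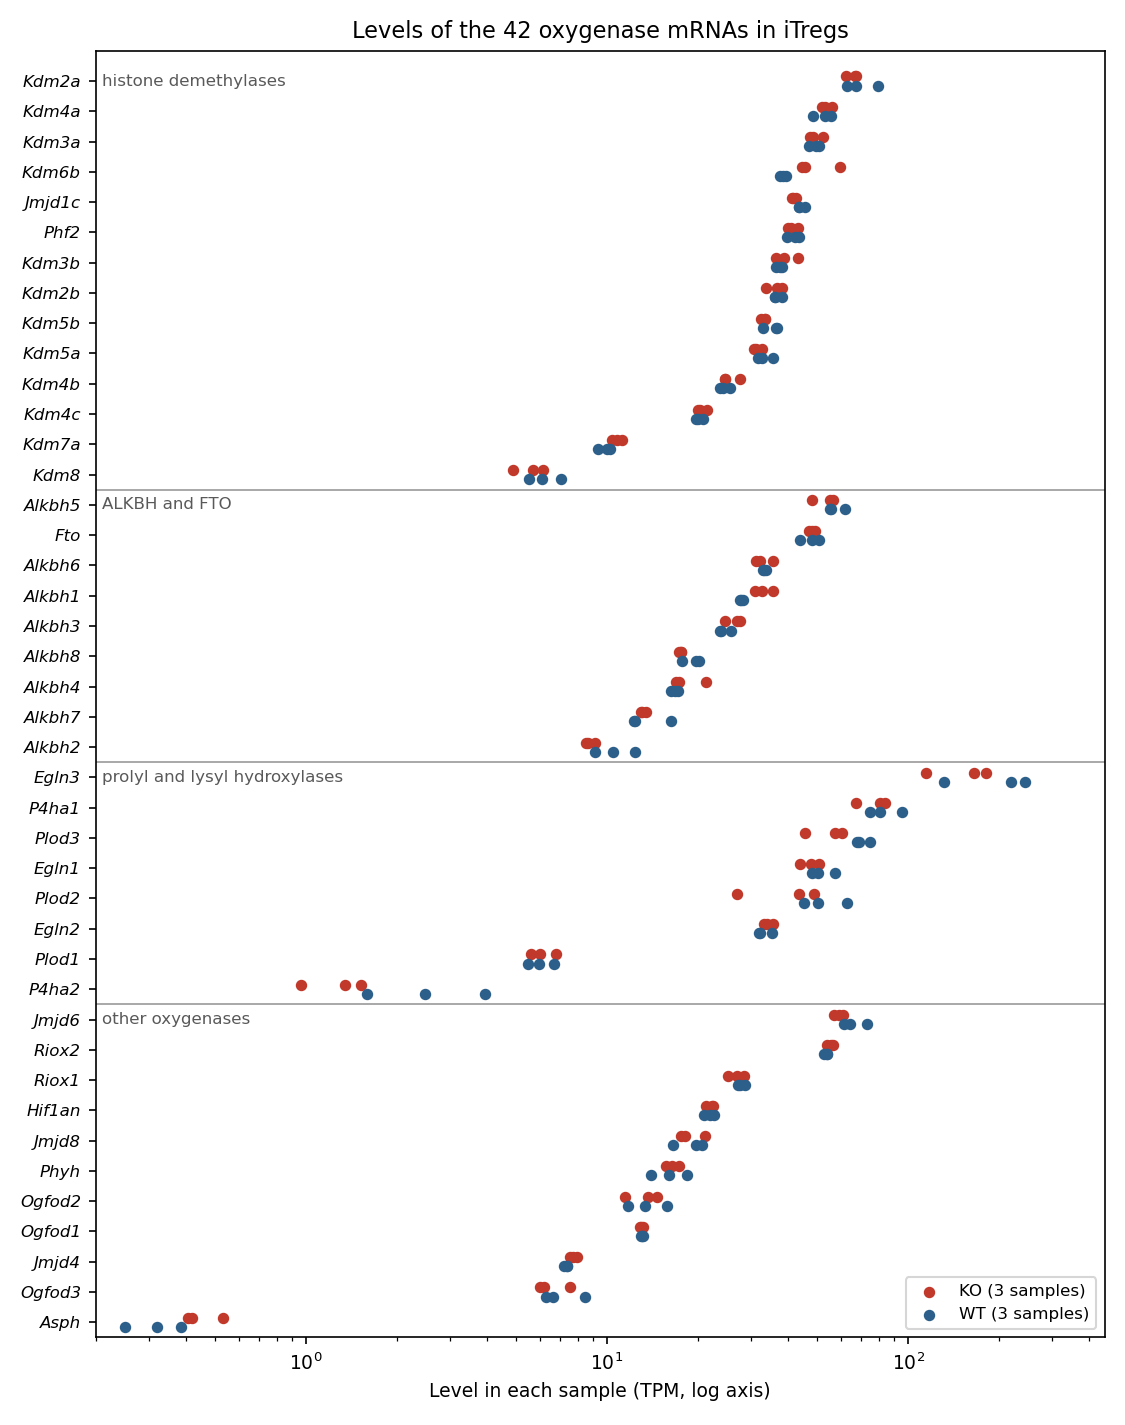
TPM of each of the 42 members in each sample on a log axis, KO in red above WT in blue, sorted by mean level within each family. Egln3 is the highest and Asph the lowest, and red and blue points lie close together in most rows.

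The histone demethylases split evenly, with 7 log2 fold changes above 0 and 7 below and a median of -0.00. Their range was -0.13 to 0.37, and for 13 of the 14 the interval stayed within 1.5-fold. Kdm6b, which removes the repressive Polycomb mark from histone H3, had 227, 170 and 174 CPM in KO, against 150, 146 and 146 CPM in WT. All 3 KO values were the higher ones, and the first KO library was well above the other 2. The log2 fold change was 0.37 (SE 0.11) with an unadjusted p of 0.00886 and an adjusted p of 0.182 by edgeR, and it was 0.23 without the first KO library. Over all alternatives the adjusted p ran from 0.0192 to 0.349. That library also held the most neutrophil and macrophage marker mRNA, and the part of those cells in the Kdm6b value was not tested.

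Kdm7a, which acts on repressive histone H3 marks, had 59.4, 57.4 and 61.7 CPM in KO and 55.5, 52.0 and 54.6 CPM in WT. The KO values were higher without overlap, but the step was small at 0.14 on the log2 scale (SE 0.05, adjusted p = 0.28). Kdm2b, which brings a variant Polycomb complex to CpG islands, had 75.7, 78.7 and 77.9 CPM in KO and 90.4, 84.9 and 79.1 CPM in WT. The groups were separate in CPM and overlapped in TPM, with log2 fold changes of -0.13 on counts (adjusted p = 0.361) and -0.02 on log2(TPM + 1). Jmjd1c, of the KDM3 family, had 195, 185 and 191 CPM in KO and 191, 213 and 199 CPM in WT, and the groups overlapped.

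Kdm3a, Kdm4b and Kdm4c, the HIF-inducible demethylases, had log2 fold changes of 0.01, 0.06 and 0.04, in that order. Kdm3a, which clears methyl groups from lysine in the heterochromatin mark of histone H3, had 126, 134 and 126 CPM in KO and 128, 131 and 123 CPM in WT. Kdm4b had 62.2, 56.9 and 56.3 CPM in KO and 58.6, 57.2 and 52.2 CPM in WT. Kdm4c had 51.6, 48.7 and 48.3 CPM in KO and 47.3, 48.3 and 49.1 CPM in WT. Groups overlapped in all 3. Kdm4c holds the most motif matches of the stretches shown, which were chosen for their matches. The other 7 demethylases (Kdm2a, Kdm3b, Kdm4a, Kdm5a, Kdm5b, Kdm8 and Phf2) had values from -0.13 to 0.07, none with an unadjusted p below 0.05.

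The ALKBH family and Fto had 4 values above 0 and 5 below, with a median of -0.01. Alkbh1, which demethylates tRNA and modifies tRNA in mitochondria, had the smallest p of all 42 members. It had 40.2, 37.5 and 36.5 CPM in KO, against 30.5, 29.7 and 31.3 CPM in WT. Every KO library was above every WT library, with means of 38.1 ± 1.87 CPM in KO and 30.5 ± 0.830 CPM in WT (SD, n = 3 each), a ratio of 1.25. This gave 0.32 on the log2 scale (SE 0.06, 95% interval 0.18 to 0.46), with an unadjusted p of 0.000699 and an adjusted p of 0.071 by edgeR. DESeq2 gave an adjusted p of 0.00327 for it, and over all alternatives tried the adjusted p ran from 0.00327 to 0.217. Without the first KO library the value was 0.28.

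Alkbh2 and Alkbh3 repair alkylated bases in DNA. Alkbh2 had 4.71, 4.66 and 4.50 CPM in KO and 6.25, 4.73 and 5.55 CPM in WT. The groups were apart by a hair, as the second WT library lay next to the KO values, and the log2 fold change was -0.25 (SE 0.14, adjusted p = 0.442). Alkbh3 had 18.8, 18.5 and 17.0 CPM in KO and 15.8, 17.9 and 16.1 CPM in WT, with overlap and a value of 0.12. Alkbh4 had 18.7, 15.8 and 15.4 CPM in KO and 14.1, 15.3 and 15.2 CPM in WT. Its KO values were the higher ones in CPM and not in TPM, and the log2 fold change was 0.16 with all libraries and 0.07 without the first KO library. The other 5, among them Alkbh5 at -0.11 (SE 0.08) and Fto at 0.02 (SE 0.06), had no unadjusted p below 0.05.

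**Figure D3:**
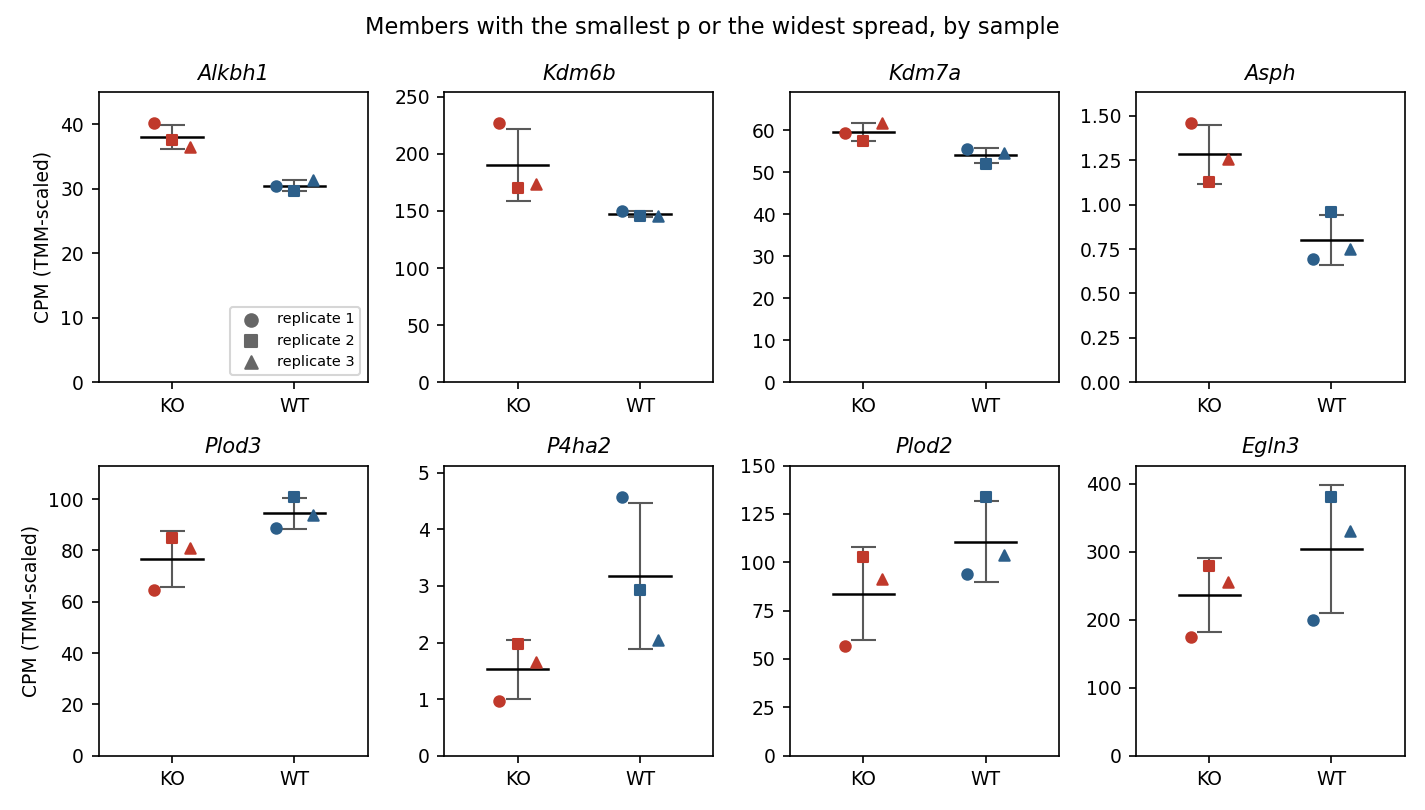
TMM-scaled CPM by sample for 8 members, with the replicate number as the point shape, the group mean as a line and the SD as a bar (n = 3 each). In Alkbh1, Kdm6b, Kdm7a and Asph all KO points lie above the WT points, in Plod3 and P4ha2 all lie below, and in Plod2 and Egln3 the groups overlap.

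Of the 8 prolyl and lysyl hydroxylases 6 had values below 0, and the median was -0.22. None passed the threshold, and 2 had an unadjusted p below 0.05. The median was -0.129 without the first KO library. Of the collagen-modifying enzymes, P4ha2 had 0.958, 1.97 and 1.65 CPM in KO, against 4.58, 2.92 and 2.04 CPM in WT. The groups did not overlap, but the highest KO and lowest WT libraries were neighbours and the WT values spread widely. The log2 fold change of P4ha2 was -1.07 (SE 0.37, 95% interval -1.91 to -0.22, adjusted p = 0.239 by edgeR), and it was -0.72 without the first WT library.

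Plod3, a lysyl hydroxylase of collagen that also adds sugars, had 64.4, 85.0 and 80.9 CPM in KO and 88.9, 101 and 93.7 CPM in WT. The groups were separate, with the first KO library lowest. Its log2 fold change was -0.30 (SE 0.11, adjusted p = 0.247), and -0.19 without that library. Plod2 had 56.8, 103 and 91.4 CPM in KO and 93.8, 134 and 104 CPM in WT, which overlapped (-0.41, SE 0.24, adjusted p = 0.473; -0.19 without the first KO library and -0.25 without the second WT library). Plod1 had 11.7, 10.8 and 10.4 CPM in KO and 11.4, 10.4 and 10.6 CPM in WT, which overlapped (0.02, SE 0.09).

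P4ha1 had 105, 129 and 133 CPM in KO and 150, 121 and 126 CPM in WT, which overlapped (-0.12, SE 0.11). The value was -0.02 without the first KO library, -0.02 without the first WT library and 0.08 without both. Stromal cells are rich in these collagen enzymes, and their part in the values above was not tested. The summed CPM of 7 fibroblast markers, on library totals alone, was 0.321 to 0.809 in KO and 0.468 to 0.918 in WT.

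The EGLN enzymes hydroxylate HIF-alpha in normal oxygen. Egln1 had 90.1, 98.9 and 105 CPM in KO and 117, 106 and 98.5 CPM in WT, with overlap and a value of -0.13 (SE 0.08, adjusted p = 0.501). Egln2, which is not induced by HIF, had 42.8, 40.1 and 41.1 CPM in KO and 38.6, 38.8 and 41.4 CPM in WT, with a value of 0.06. Egln3 had 175, 279 and 255 CPM in KO and 200, 381 and 331 CPM in WT. In both groups the first library was the lowest by far. Its log2 fold change was -0.36 (SE 0.27, adjusted p = 0.581 by edgeR), -0.19 without the first KO library, -0.17 without the second WT library and -0.59 without the first WT library. With both libraries numbered 1 left out it was -0.41 with an adjusted p of 0.0368, in a comparison of 2 against 2 samples in which 4.21% of all genes passed. The KO libraries left in that comparison are the closely similar pair (BCV 2.97%), and with these summed into 1 sample the value was -0.46 with an adjusted p of 0.621. Over all alternatives the adjusted p of Egln3 ran from 0.0368 to 0.835.

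As a group, the 9 HIF-inducible members had a median log2 fold change of -0.12, with 4 above 0 and 5 below. The median was -0.027 without the first KO library, -0.02 without the first WT library and -0.002 without both. Their summed CPM was 680, 862 and 826 in KO and 811, 992 and 897 in WT, and that of the other 33 members was 2274, 2199 and 2224 in KO and 2246, 2239 and 2195 in WT. Both sums overlapped between the groups. The first KO library was the lowest of all 6 for 5 of the 9 HIF-inducible members and the highest for 3 of them. The first WT library was the highest for 3 and the lowest for 1.

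**Figure D4:**
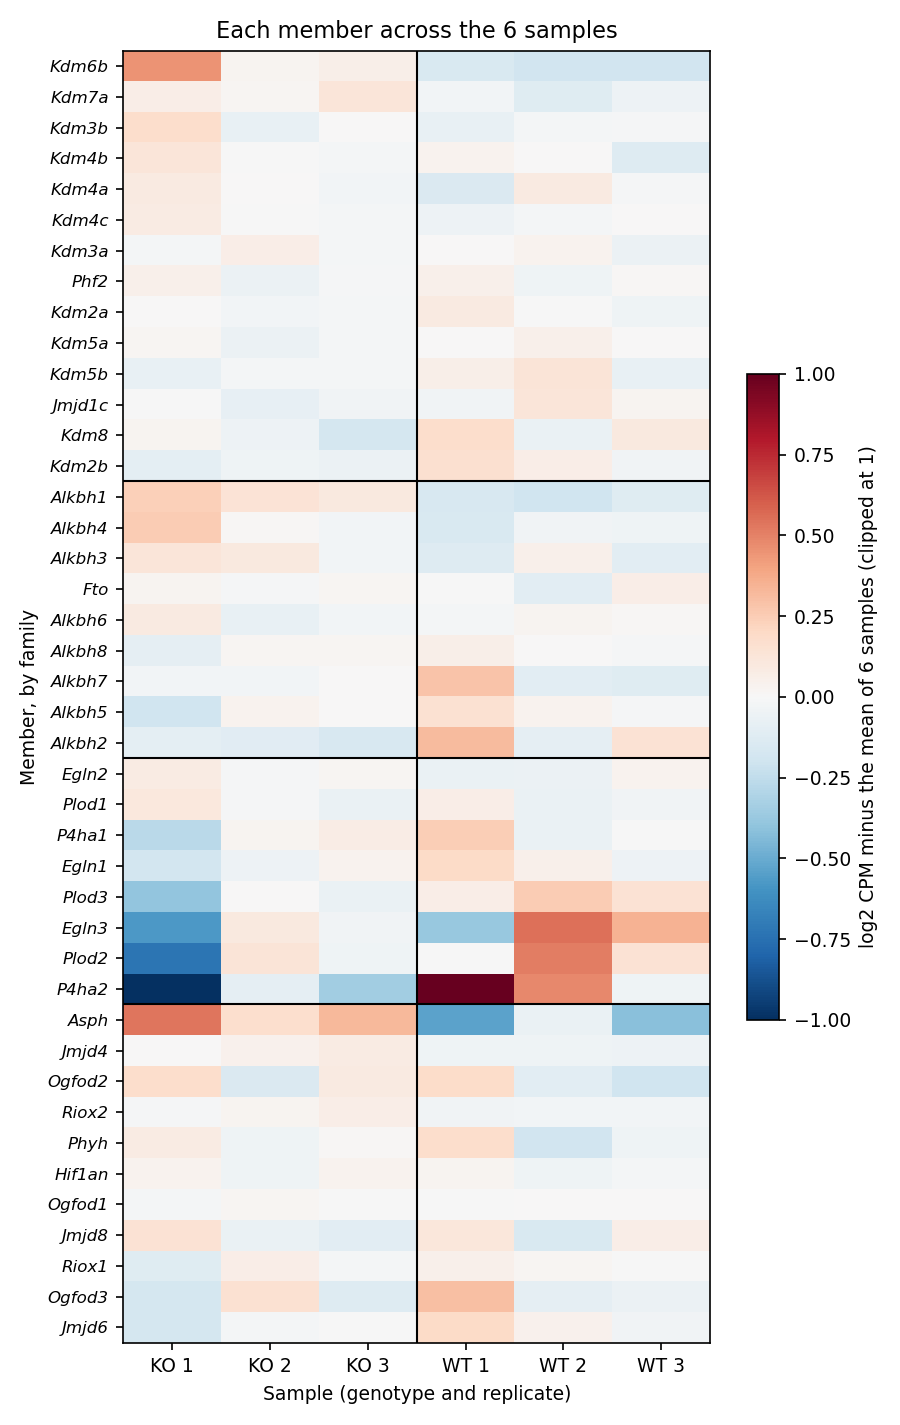
Log2 CPM of each member in each sample minus its mean over the 6 samples (colour, clipped at 1), KO columns left of WT columns, sorted by fold change within each family. The strongest colours are in P4ha2, Plod2, Egln3, Plod3, Asph and Kdm6b, most often in the libraries numbered 1.

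Among the remaining oxygenases 6 values lay above 0 and 5 below, with a median of 0.02. Asph hydroxylates aspartate and asparagine in EGF-like domains, and its gene also makes proteins that lack the enzyme domain. It had 1.46, 1.13 and 1.26 CPM in KO, against 0.694, 0.959 and 0.753 CPM in WT. All KO libraries were higher, at the lowest level of any member. The log2 difference was 0.68 (SE 0.24), with an adjusted p of 0.252 by edgeR. On the log2(TPM + 1) scale, which understates changes of scarce genes, it was 0.14. With a pseudocount of 0.1 it was 0.40, also below the value from counts. The first KO library was the highest, and without it the value was 0.57.

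Jmjd4, which hydroxylates a translation release factor, had 18.9, 19.4 and 19.9 CPM in KO and 18.3, 18.3 and 18.2 CPM in WT. Riox2 had 66.3, 68.0 and 69.8 CPM in KO and 65.3, 65.7 and 65.7 CPM in WT. The KO libraries were the higher ones in both, by 0.09 and 0.05 on the log2 scale, with adjusted p of 0.546 and 0.627 by edgeR. Jmjd6 had 45.0, 50.2 and 50.9 CPM in KO and 58.2, 52.4 and 49.6 CPM in WT, with overlap in CPM (-0.13, SE 0.08). Hif1an, which hydroxylates an asparagine of HIF-alpha, was at 0.02, and Phyh, the peroxisomal phytanoyl-CoA hydroxylase, at 0.04. Jmjd8, Ogfod2 and Ogfod3 were at -0.01, 0.08 and -0.11, each with an interval that spans 0.

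Alkbh1 and Riox1 lie on chromosome 12 near Dlst, and so near the targeted locus. Dlst spans chr12:85110833-85134845 (GRCm38), Riox1 starts 1.16 Mb before it, and Alkbh1 spans chr12:87425840-87444017 on the minus strand. Riox1, a histidyl hydroxylase, had 34.0, 38.6 and 36.4 CPM in KO and 38.3, 37.4 and 36.9 CPM in WT, which overlapped (-0.05, SE 0.06). Within 5 Mb of Dlst there were 81 tested genes, Dlst included, with a median log2 fold change of 0.01. None of them passed the threshold by edgeR, and Alkbh1 had the smallest p of all 81. An unadjusted p below 0.05 was reached by 13 (16.0%), beside 15.1% of all tested genes.

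The nearest tested genes on either side of Alkbh1 also had all KO values above all WT values. Sptlc2 was at 0.19 (SE 0.05, adjusted p = 0.153), Snw1 at 0.13 (SE 0.05, adjusted p = 0.294) and Slirp at 0.07 (SE 0.06, adjusted p = 0.638) by edgeR. Farther out, the groups overlapped for Ahsa1 at -0.09 (SE 0.06) and Vipas39 at 0.04 (SE 0.06), and Tmed8 was higher in KO without overlap at 0.19 (SE 0.06, adjusted p = 0.218). Over the whole window 8 of the 81 genes were higher without overlap and 8 lower. Of all tested genes, 11.9% were higher without overlap and 10.9% lower, so the window as a whole did not exceed those shares. These neighbours were picked by position, after their values were seen. The RefSeq starts of Alkbh1 and of Slirp, on the opposite strand, have 56 bases between them, and their exons overlap in GENCODE. Whether the authors' counting used strand is not given, so reads in the overlap cannot be told apart. The sources used here do not give the strain background around the locus, and its part in the Alkbh1 value cannot be told apart from that of the genotype.

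**Figure D5:**
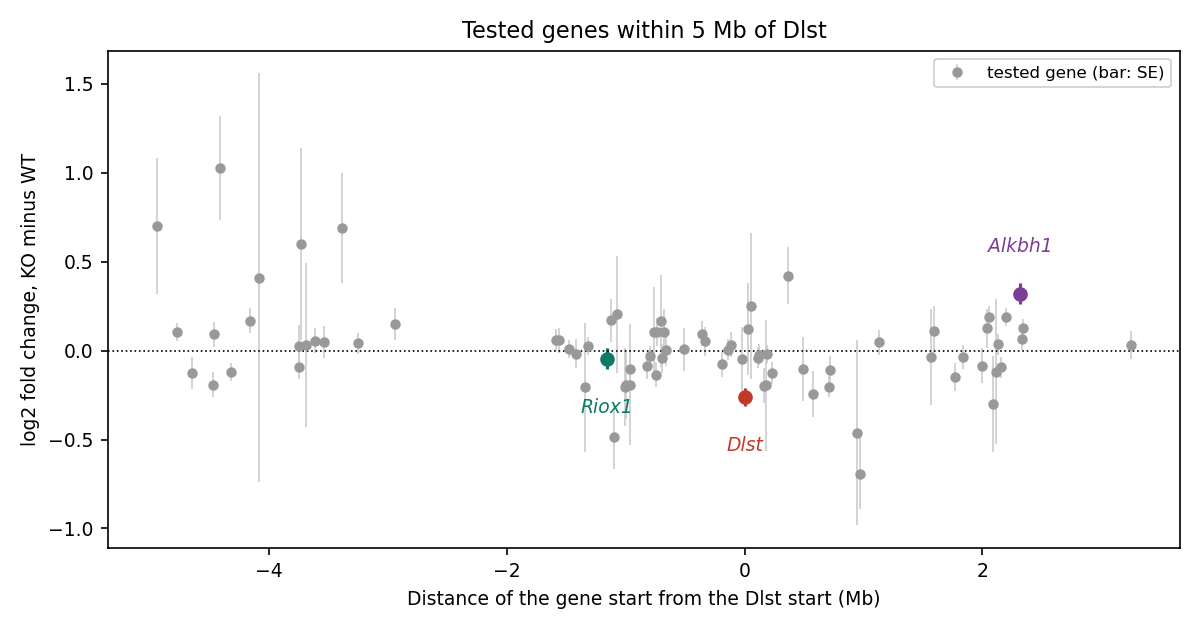
Log2 fold change, KO minus WT (points, with SE bars), of the 81 tested genes within 5 Mb of Dlst, by distance of the gene start from the Dlst start in Mb. Alkbh1 (purple) is at 0.32, while Riox1 (green) is at -0.05 and Dlst (red) at -0.26.

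Other members share exons with a gene on the opposite strand in GENCODE. These include Plod3 with Znhit1, Kdm2b with Rnf34, Alkbh2 with Usp30, Asph with Clvs1, Riox2 with Crybg3, Jmjd4 with Snap47 and Jmjd6 with Mettl23. Also among them are Ogfod3 with Hexdc, Kdm5a with Ccdc77, and Jmjd8 with Stub1 (means of 949 and 2171 counts per library). Kdm6b shares exons with Kdm6bos, which is not among the genes listed. For these pairs too the counts could hold reads of the partner. Of the 11 members whose groups did not overlap in CPM, 9 were also separate in TPM, the exceptions being Kdm2b and Alkbh4. In TPM 12 members were separate, 6 in each direction, where 21.4% of all tested genes were.

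Genes that surround these enzymes in metabolism and function were read from the same comparison. Where 0.674% of all tested genes passed the threshold, 1 of 21 genes for making and using 2-oxoglutarate and succinate did. It was Sdhb, which encodes an iron-sulphur protein of the succinate dehydrogenase complex, with 74.8, 74.8 and 71.4 CPM in KO and 94.0, 92.2 and 93.2 CPM in WT. The groups were far apart, by -0.34 on the log2 scale (SE 0.05), and the adjusted p was 0.0292 by edgeR. The median of that list was -0.04, with 16 of 21 below 0, among them the targeted gene Dlst itself at -0.26.

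Of 30 HIF pathway genes and targets none passed by edgeR, and 3 had an unadjusted p below 0.05. Their median was -0.14 with 22 of 30 below 0, and their summed CPM, on library totals alone, was 6287, 7395 and 7132 in KO and 8629, 6978 and 6628 in WT. The sum overlapped between the groups, with the first library of each genotype at the ends. Bnip3l, a mitophagy receptor, was at 0.18 (SE 0.05, adjusted p = 0.189), and Hk1, a hexokinase, at -0.20 (SE 0.06, adjusted p = 0.215).

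Enzymes that write the marks that members erase were read in the same way. Of 25 histone lysine methyltransferases none passed by edgeR, 5 had an unadjusted p below 0.05, and the median was 0.03. Smyd2 had a value of -0.24 (SE 0.06, adjusted p = 0.153), and Nsd2, which methylates histone H3, one of -0.23 (SE 0.07, adjusted p = 0.216). Of 19 RNA methylation writers and readers none passed, 1 had an unadjusted p below 0.05, and the median was 0.00. Mettl3, the catalytic subunit that writes methyladenosine on mRNA, had 30.6, 31.9 and 31.3 CPM in KO and 26.5, 26.8 and 28.0 CPM in WT. Its groups were separate at 0.21 (SE 0.05, adjusted p = 0.157), while Wtap, its partner, was at 0.09 (SE 0.05, adjusted p = 0.444).

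Of 11 further 2-oxoglutarate oxygenases with enough counts none passed by edgeR, and 1 had an unadjusted p below 0.05. That was Hr, a JmjC-domain corepressor, with 1.82, 4.30 and 3.50 CPM in KO and 6.13, 7.86 and 8.55 CPM in WT. The groups did not overlap, by -1.24 on the log2 scale (SE 0.30), and the adjusted p was 0.138. Hspbap1 was at -0.27 (SE 0.13, adjusted p = 0.382), and its KO values were spread between 14.5 and 21.1 CPM.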

How the data were processed

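The submitters' processing notes name FastQC and the aligner HISAT2; the sources used here do not give the build, annotation, counter or strand setting. The authors deposited 2 tables per sample: estimated counts per gene, with decimals in at least 1 library for 17 of the 42 members, and TPM. Positions came from GENCODE M21 (GRCm38), in which all 42 members matched.

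Estimated counts were rounded to whole numbers. Genes were filtered with filterByExpr (12768 of 21899 kept), scaled by TMM (factors 0.988 to 1.01), and tested for KO against WT with edgeR 4.0.16 (quasi-likelihood F test, two-sided, robust dispersion). P-values were adjusted by Benjamini-Hochberg over all tested genes, with a threshold of 0.05. An exact permutation test of 3 against 3 cannot go below 0.1. TPM served for levels and for limma 3.58.1 on log2 values with pseudocounts of 1 and 0.1. DESeq2 1.42.0, other filters and scaling, a replicate block and left-out libraries were alternatives.

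Members and lists were chosen with earlier results of these data known. Full values were given for members past the threshold, the 4 of smallest p in each family, HIF-inducible members and those within 5 Mb of Dlst, and levels for the 2 highest and the lowest in each family. In other lists, members past the threshold up to 3, or else the 2 of smallest p, were named; Dlst was given first. Egln2, Ogfod1 and others outside the rule were named after their values were seen.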

Additional observations from a re-analysis of the deposited data

How the results depend on the processing

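Against 86 genes past the threshold by edgeR, there were 532 with DESeq2, 133 with no filter on low counts, 39 with limma on log2(TPM + 1), 177 with the replicate block, 538 with both libraries numbered 1 left out, 8 with KO libraries 2 and 3 summed, and 4 to 93 when each library was left out in turn. The number of members past the threshold was 0 with the block, 2 with DESeq2, 3 with both libraries numbered 1 left out (Alkbh1, Kdm6b and Egln3, with 2 KO libraries left that differed by a BCV of 2.97%) and 0 in every other setting, each replicate left out included. Same-numbered KO and WT libraries had correlations of deviations of 0.184, 0.078 and 0.084, and differently numbered ones ran from -0.145 to 0.112. These values do not settle whether the numbers pair samples. The labels give no pairing, so the main fit used none and the block was kept as an alternative. The median over all members, -0.011, was 0.012 with both libraries numbered 1 left out and ran from -0.027 to 0.014 over single libraries left out. Members with full values that turned sign were Kdm4c (-0.01), Riox1 (0.02) and P4ha1 (0.08) with both libraries numbered 1 left out, and, over single libraries left out, Kdm3a (-0.02 to 0.04), Riox1 (-0.09 to 0.00) and Plod1 (-0.03 to 0.06). The causes were not tested. Over all 42, 23 members kept their sign in each of the 15 settings in which they could be fitted. Asph could not be fitted under the stricter filter. With 3 samples per group, a change within an interval that spans 0 could not be told from none. For the 6 members with an unadjusted p below 0.05 by edgeR the interval excluded 0, but none passed the adjusted threshold. The widest intervals were those of P4ha2 (-1.91 to -0.22), Egln3 (-1.03 to 0.30), Plod2 (-0.98 to 0.17) and Asph (0.12 to 1.24). P4ha2 and Asph were the scarcest members and Egln3 the most abundant.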
